A study of Vitis vinifera with 36 samples.

Results

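The isoflavone reductase cluster of chromosome 3 of the grapevine (Vitis vinifera) was examined through 6 genes. In the order of their numbers these are VIT_03s0038g04620 and VIT_03s0038g04670, then VIT_03s0038g04680 and VIT_03s0038g04690, and last VIT_03s0038g04700, here called VviIFR, and VIT_03s0038g04710. They are the isoflavone reductases that the study singled out, and they were matched to their probes through its supplementary gene tables, which pair 3828 genes with a probe in all. All 6 were among the 23152 probes tested, of 26564 probes with values on every array. The study picked them out because they were higher in seeded than in seedless varieties at pea size and because their course over the stages in RG fell in 1 cluster with VviAGL11. Both choices used samples analysed here, namely the RG arrays of all stages and the IT and TS arrays of S3. The study also ranked genes by co-expression with VviAGL11 and by level over its whole ovule and seed series, along with other data. It took VviIFR from the top of that ranking and reported 6 isoflavone reductases in its top list. That ranking drew on every stage of RG, IT and TS. No comparison given here is therefore independent evidence, nor is any step difference, least of all those with the arrays named first. Transcripts were measured in whole ovules or young seeds of 3 table grapes, Red Globe (RG) and Italia (IT), which form seeds, and Thompson Seedless (TS), all grown in 1 field collection with no hormone applied. Each variety was sampled at S1 (pre-bloom), S2 (post-bloom), S3 (pea size) and S4 (veraison), with 3 arrays per variety and stage, 36 in all, on a custom 1-colour Agilent array. The replicates are described as biological, but nothing says that they came from separate vines, so p-values measure only the spread between these arrays. The other seedless variety of the study was not analysed here, and TS alone stood for the seedless class.

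Isoflavone reductases are NADPH-dependent enzymes named after a step of isoflavonoid phytoalexin synthesis in legumes. In other plants, proteins of the same family include phenylcoumaran benzylic ether reductases and pinoresinol-lariciresinol reductases, which act on lignans and related phenylpropanoid dimers, and the birch pollen allergen Bet v 6. The substrates of most members annotated by sequence alone are not known. In seedless grapes of the Thompson type fertilization takes place, but the seed then stops developing and remains as a soft trace, and the MADS-box gene VviAGL11, which acts in ovule and seed coat development, has been linked to this trait.

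The annotation separates the 6 genes little. VIT_03s0038g04620 and VIT_03s0038g04710 are both described as isoflavone reductases of phytoalexin synthesis, VIT_03s0038g04670 simply as isoflavone reductase, VIT_03s0038g04680 as an isoflavone reductase of the Bet v 6 type and VIT_03s0038g04690 as isoflavone reductase protein 6. Another gene of the same run of numbers, VIT_03s0038g04660, carries the name isoflavone reductase 5 and is not among the 6. Whether a probe also bound transcripts of neighbouring copies was not tested, and the 6 readings may therefore not be independent.

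Signals are given as log2 of the processed signal minus the log2 of the array's 75th percentile, so a level of 0 marks that percentile on its own array. Levels are compared between samples of 1 probe only. A difference was called when limma gave an adjusted p under 0.05 and a log2 difference over 1 in either direction. Each of the 6 probes has 2 spots on every array, none of them flagged or saturated. The 5 genes other than VIT_03s0038g04710 were well above background on all 36 arrays, and VIT_03s0038g04710, a dim probe with processed signals of 14.8 to 650.1, on 35 of 36. The exception was IT S1 replicate 3, the array with the fewest probes well above background, 39.4%.

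Over the 36 arrays a median of 77.4% and at most 90.3% of the probes were well above background, and the 75th percentile of the signal ran from 100.4 to 1359. RG and TS arrays shared 7 slides, whereas IT lay on 5 slides of its own, so variety and slide cannot be told apart for IT. Replicate 3 of RG S4 and replicate 3 of TS S4, both on slide 1, correlated least with the other arrays of their groups (lowest Spearman's rho 0.899 and 0.892). Other groups had lower values, down to 0.872 in RG S2 and in TS S1. Of the ovule and seed coat markers, VviAGL11, anthocyanidin reductase and leucoanthocyanidin reductase 1 were well above background on all arrays, while inner no outer was so on no array of RG S4 or TS S4.

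The 5 genes other than VIT_03s0038g04710 had the same course in each variety: a peak at S3 in both seeded varieties, highest in RG, a drop at S4 that was far deeper in RG than in IT, and no called step in TS. VviIFR serves as the example. In RG it stood at 5.09, 5.56 and 5.88 at S1 and then 4.67, 4.66 and 5.12 at S2, followed by 7.44, 7.63 and 7.67 at S3 and by 2.74, 2.82 and 4.28 at S4. In IT it stood at 4.65, 4.35 and 4.82 at S1 and then 4.19, 4.39 and 3.99 at S2, followed by 7.01, 7.06 and 6.98 at S3 and by 5.21, 5.07 and 6.25 at S4. In TS it stood at 4.10, 5.20 and 4.63 at S1 and then 4.57, 4.54 and 4.65 at S2, followed by 5.46, 5.06 and 5.0 at S3 and by 5.33, 5.0 and 4.07 at S4. The 6 seeded arrays of S3 lay above all other 30 arrays, and replicates 1 and 2 of RG S4 lay below all others. In whole ovules and seeds fewer cells of a type and less RNA per cell cannot be told apart.

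Ranked by group mean, VviIFR ran from RG S3 (7.58 ± 0.12, SD, n = 3) and IT S3 (7.02 ± 0.04, SD, n = 3), whose arrays did not overlap, to a broad middle of 8 groups from RG S1 (5.51 ± 0.40, SD, n = 3) to TS S2 (4.59 ± 0.06, SD, n = 3), in which each group overlapped the next. IT S2 (4.19 ± 0.20, SD, n = 3) lay below TS S2 without overlap, and RG S4 (3.28 ± 0.87, SD, n = 3) was lowest, although 1 of its arrays reached into the range of IT S2. The top and the bottom of the order were the same groups for VIT_03s0038g04620, VIT_03s0038g04670, VIT_03s0038g04680 and VIT_03s0038g04690, with RG S3 first, IT S3 second, IT S2 in the place before last and RG S4 last. Only for VIT_03s0038g04690 did the arrays of RG S3 and IT S3 overlap.

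**Figure D1:**
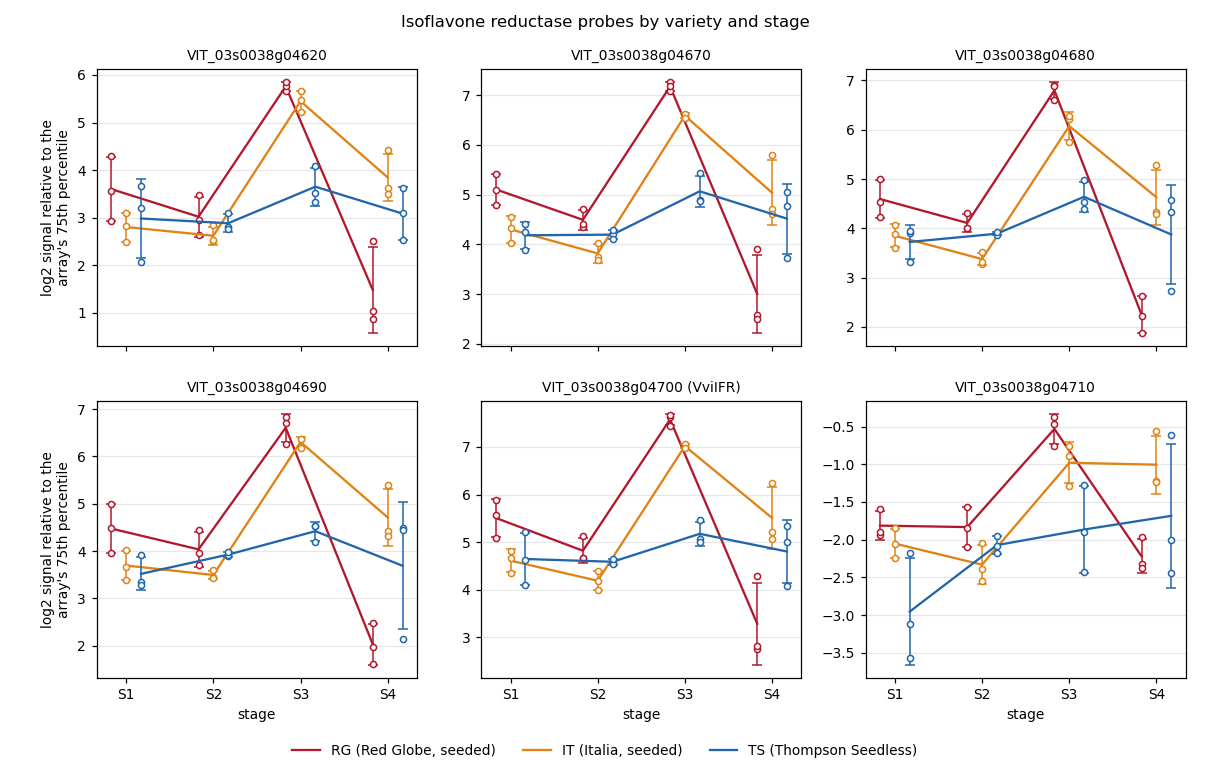
Log2 signal of each probe relative to the array's 75th percentile (y axis) at stages S1 to S4 (x axis) in RG, IT and TS. Open circles are single arrays, lines join the group means and bars are 1 SD (n = 3). For VviIFR the mean of RG falls to 3.28 at S4, against 7.58 at S3, while TS stays between 4.59 and 5.17.

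VIT_03s0038g04710 followed the others only in part. In RG it stood at -1.94, -1.60 and -1.90 at S1 and then -1.84, -2.09 and -1.57 at S2, followed by -0.76, -0.47 and -0.37 at S3 and by -2.33, -2.37 and -1.96 at S4. In IT it stood at -2.06, -1.85 and -2.24 at S1 and then -2.05, -2.55 and -2.39 at S2, followed by -0.76, -0.89 and -1.29 at S3 and by -1.22, -1.23 and -0.56 at S4. In TS it stood at -2.18, -3.56 and -3.12 at S1 and then -2.18, -2.09 and -1.95 at S2, followed by -1.28, -1.89 and -2.42 at S3 and by -0.62, -2.0 and -2.44 at S4. The peak at S3 was there in RG, but in IT the arrays of S4 overlapped those of S3, and the lowest group was TS S1 (-2.95 ± 0.71, SD, n = 3) and not RG S4 (-2.22 ± 0.22, SD, n = 3).

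The comparison of RG with TS sets a seeded against a seedless variety on shared slides. At S3 all 6 genes were called higher in RG, against 9.45% of all probes tested. VviIFR had the largest difference, 5.30-fold (log2 2.41, 95% interval 1.66 to 3.15, adjusted p = 1.12e-05), and the other 4 genes of its group lay close to each other, at 4.31-fold or more. VIT_03s0038g04710 had the smallest, 2.52-fold (log2 1.33, 95% interval 0.60 to 2.07, adjusted p = 0.00583). The members' median log2 difference was 2.13, a size reached by 2.76% of the probes, where the median of all probes was 0.00. The RG and TS arrays of S3 were used to choose the genes, so nothing is read from these shares.

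The arrays behind these differences were well apart. VIT_03s0038g04620 stood at 5.66, 5.77 and 5.85 in RG S3, against 4.10, 3.34 and 3.52 in TS S3. VIT_03s0038g04670 stood at 7.07, 7.26 and 7.19 in RG S3, against 5.43, 4.90 and 4.87 in TS S3. VIT_03s0038g04680 stood at 6.60, 6.91 and 6.88 in RG S3, against 4.98, 4.54 and 4.40 in TS S3. TS S3 replicate 1 was the highest of its group for each of the 6 probes. Within slide 2 the 5 genes other than VIT_03s0038g04710 were 1.56 to 1.98 higher in RG on the log2 scale, and within slide 4 they were 2.25 to 2.63 higher. Without TS S3 replicate 3 the difference of VIT_03s0038g04710 was 1.05 and its call was lost (adjusted p = 0.0563), and without any other single array of the 2 groups all 6 calls held. That call was also lost with no scaling between arrays (1.70, adjusted p = 0.142), with first spots alone (1.28, adjusted p = 0.0552) and with the methods' t-test after Benjamini-Hochberg (adjusted p = 0.0521).

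At S4 the direction was the opposite. The 5 genes other than VIT_03s0038g04710 were called lower in RG, by 2.86 to 3.18-fold (log2 -1.67 to -1.51, adjusted p 0.00091 to 0.00529), against 9.92% of all probes called lower. RG S4 was part of the course by which they were chosen. VIT_03s0038g04710 differed by -0.54 (95% interval -1.27 to 0.20, adjusted p = 0.363). The size of the members' median, -1.57, was reached by 8.91% of the probes. The calls were lost with no scaling between arrays (adjusted p 0.287 to 0.396 for the 5 genes), when only the RG S4 and TS S4 arrays were fitted (adjusted p 0.142 to 0.230) and with the methods' t-test.

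This difference rested on replicates 1 and 2. VIT_03s0038g04620 stood at 1.04, 0.87 and 2.52 in RG S4, against 3.63, 3.10 and 2.53 in TS S4. VIT_03s0038g04690 stood at 1.61, 1.98 and 2.48 in RG S4, against 4.48, 4.45 and 2.14 in TS S4. VIT_03s0038g04680 stood at 1.88, 2.23 and 2.63 in RG S4, against 4.58, 4.32 and 2.73 in TS S4. For each of these probes replicate 3 of RG was the highest array of RG S4 and replicate 3 of TS the lowest of TS S4. Within slide 1, which holds both, the 5 genes differed by only -0.09 to 0.34, whereas they were 2.47 to 2.87 lower in RG within slide 2 and 2.10 to 2.48 lower within slide 3 on the log2 scale. Without the arrays of slide 1 the 5 genes differed by -2.67 to -2.37 and were all called. VviAGL11 kept its order in all replicates, at 5.79 to 6.19 over the 3 arrays of RG S4, against 0.62 to 2.60 over those of TS S4. What sets the arrays of slide 1 apart was not tested.

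Before pea size no member was called between RG and TS. At S1, where 5.58% of the probes were called in either direction, the members were 0.62 to 1.14 higher in RG on the log2 scale, with VIT_03s0038g04710 the largest (1.14, 95% interval 0.40 to 1.88, adjusted p = 0.0578). It was called with the replicate number as a block (adjusted p = 0.0477) and without TS S1 replicate 1 (1.53, adjusted p = 0.0130). At S2, where 4.95% of the probes were called, the 6 differences ran from 0.11 to 0.30, and for VviIFR the 95% interval was -0.51 to 0.98.

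IT differed from TS in the same direction at S3. The 5 genes other than VIT_03s0038g04710 were called higher in IT, by 2.70 to 3.70-fold. However, 20.5% of all probes were called higher in this comparison, and the members' median of 1.66 was reached by 18.4% of the probes. The IT and TS arrays of S3 were used to choose the genes, so nothing is read from these shares. VviIFR was at 7.02 ± 0.04 in IT S3 and at 5.17 ± 0.25 in TS S3 (SD, n = 3 each), a difference of 1.84 (95% interval 1.10 to 2.59, adjusted p = 0.000424). VIT_03s0038g04710 differed by 0.89 (95% interval 0.15 to 1.62, adjusted p = 0.0518). No member was called between IT and TS at S1, S2 or S4, where 12.2%, 11.3% and 29.1% of the probes were called in either direction. At S4 all 6 were nevertheless higher in the mean in IT, by 0.52 to 1.02, the opposite sign of RG against TS at that stage. Without TS S4 replicate 1, VIT_03s0038g04680 (1.11), VIT_03s0038g04690 (1.42) and VIT_03s0038g04710 (1.21) were called higher in IT at S4, and without TS S4 replicate 2 only VIT_03s0038g04690 (1.40). Without TS S1 replicate 1, VIT_03s0038g04710 was called higher in IT at S1 (1.29, adjusted p = 0.0292).

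The 2 seeded varieties parted at S4. All 6 genes were called lower in RG than in IT, against 17.4% of all probes. RG S4 was part of the course by which they were chosen, so nothing is read from that share. VviIFR was 4.68-fold lower (log2 -2.23, 95% interval -2.97 to -1.48, adjusted p = 3.46e-05), VIT_03s0038g04690 differed by -2.69 and VIT_03s0038g04680 by -2.38, and VIT_03s0038g04710 had the smallest difference (-1.21, adjusted p = 0.0107). With the first of the 2 spots alone VIT_03s0038g04690 differed by -2.03, and VIT_03s0038g04680 then had the largest difference. The first spot of VIT_03s0038g04680 itself lies near an edge of the array, in row 11 of 532. VIT_03s0038g04670 stood at 2.59, 2.51 and 3.91 in RG S4, against 4.71, 4.61 and 5.79 in IT S4. For VviIFR the highest array of RG S4 stood at 4.28 and the lowest of IT S4 at 5.07, and IT lay on slides of its own. Without IT S4 replicate 3 the difference of VIT_03s0038g04710 was -0.99 and its call was lost (adjusted p = 0.0563), as it was with quantile normalization (-0.92), no scaling between arrays (adjusted p = 0.278), normexp (-0.94), first spots alone (adjusted p = 0.0841) and the methods' t-test after Benjamini-Hochberg (adjusted p = 0.0603). At S1, S2 and S3 no member was called between RG and IT, where 8.63%, 14.1% and 29.6% of the probes were. All 18 of these differences were positive, and at S3 they ran from 0.30 to 0.72.

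**Figure D2:**
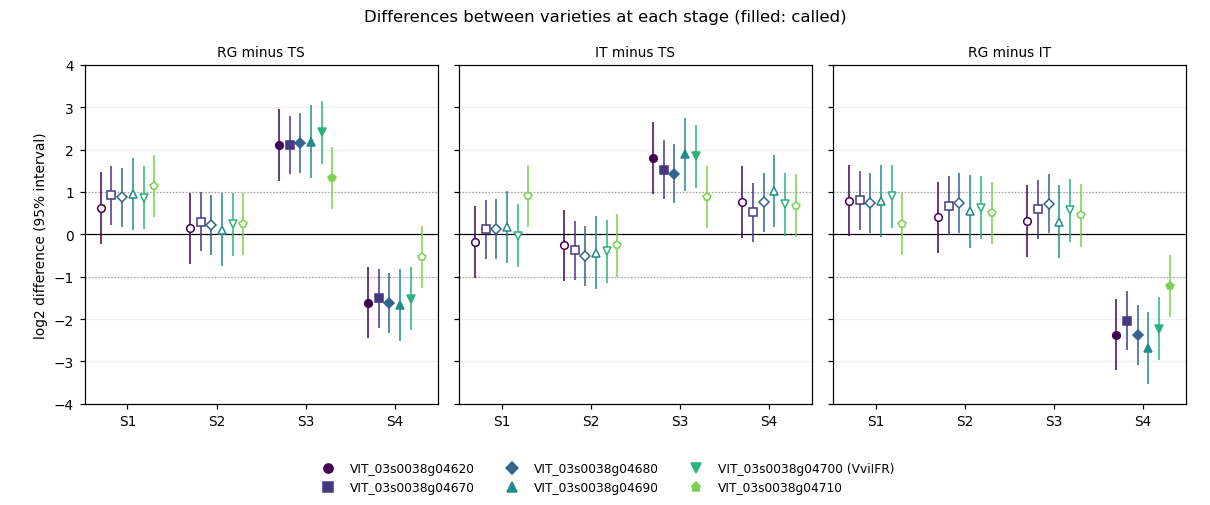
Log2 differences of the 6 probes between varieties (y axis) at stages S1 to S4 (x axis), for RG minus TS, IT minus TS and RG minus IT. Bars are 95% intervals from the limma fit, filled symbols were called and dotted lines mark a log2 difference of 1 in either direction. The signs of RG minus TS turn between S3, where VviIFR is at 2.41, and S4, where it is at -1.52.

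Within the seeded varieties the members rose together between S2 and S3. In RG all 6 were called higher at S3 than at S2, where 5.38% of all probes were, but the course in RG was used to choose them and nothing is read from that share. The 5 genes other than VIT_03s0038g04710 rose 5.95 to 6.78-fold, with VviIFR highest (log2 2.76, 95% interval 2.02 to 3.51, adjusted p = 4.37e-06), and VIT_03s0038g04710 rose 2.46-fold (log2 1.30, adjusted p = 0.0127). A log2 rise as large as the members' median of 2.68 was found for 1.43% of the probes. The call of VIT_03s0038g04710 was lost without RG S2 replicate 2 (1.17, adjusted p = 0.0602) and without RG S3 replicate 3 (1.22, adjusted p = 0.0561). It was lost as well with slide as a fixed block (adjusted p = 0.0657), scan session as a block (adjusted p = 0.0619), no scaling between arrays (adjusted p = 0.288), first spots alone (adjusted p = 0.0637) and normexp (0.95, below the fold required).

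In IT all 6 were likewise called higher at S3 than at S2, against 3.89% of all probes. The IT arrays of S3 were used to choose them, so nothing is read from that share either. The 5 genes rose 6.49 to 7.12-fold, and a rise as large as the members' median of 2.79 was found for 0.661% of the probes. VIT_03s0038g04690 stood at 6.37, 6.37 and 6.18 in IT S3, against 3.44, 3.60 and 3.43 in IT S2. VIT_03s0038g04710 rose 2.55-fold (log2 1.35, adjusted p = 0.0153), a call that was lost without any 1 of 4 of the 6 arrays, IT S2 replicates 2 and 3 and IT S3 replicates 1 and 2 (1.24 to 1.32, adjusted p 0.0534 to 0.0691). With slide as a fixed block, where slide 7 alone holds both stages, the 5 genes rose by 2.56 to 2.66 and were not called (adjusted p 0.0652 to 0.0793). VIT_03s0038g04710 was not called there either (adjusted p = 0.244), nor with no scaling between arrays (adjusted p = 0.285), normexp (0.65, adjusted p = 0.132) or the methods' t-test after Benjamini-Hochberg (adjusted p = 0.0679).

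In TS no member was called between S2 and S3, although 13.0% of the probes were called in either direction. The 5 genes were 1.41 to 1.83-fold higher at S3, with adjusted p of 0.0857 to 0.491. VIT_03s0038g04670 came closest, at 5.43, 4.90 and 4.87 in TS S3, against 4.20, 4.10 and 4.29 in TS S2 (log2 0.87, 95% interval 0.18 to 1.57). For the 5 genes the upper bounds of the intervals in TS, at most 1.61, lay below the lower bounds of the rise in IT, at least 1.96, and in RG, at least 1.72.

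Between S3 and S4 all 6 genes were called lower in RG, where 16.0% of all probes were, again in a course used to choose them. VviIFR was 19.7-fold lower at S4 (log2 -4.30, 95% interval -5.04 to -3.56, adjusted p = 2.94e-10), and the other 4 genes of its group were between 18.0 and 24.0-fold lower. VIT_03s0038g04710 was 3.22-fold lower (log2 -1.69, 95% interval -2.43 to -0.95, adjusted p = 0.000433). A fall as deep as the members' median of -4.29 was found for 3.14% of the probes. Within slide 2, which holds 1 array of each stage, the 5 genes fell by 4.48 to 4.71 on the log2 scale.

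In IT the 5 genes were called lower at S4 than at S3, by 2.72 to 3.04-fold, against 14.2% of all probes, and VIT_03s0038g04710 differed by -0.03 (95% interval -0.76 to 0.71). The S3 arrays of this step were used to choose the genes. Replicate 3 of IT S4 was the highest of its group for all 6 probes. Within the slides that hold both stages the 5 genes fell by 1.81 to 1.95 on slide 7, by 1.99 to 2.16 on slide 8 and by 0.47 to 0.80 on slide 10, which holds that array. In TS no member was called between S3 and S4, where 24.5% of the probes were called in either direction. The 5 genes had log2 differences of -0.76 to -0.37 and VIT_03s0038g04710 one of 0.18, and without TS S4 replicate 1 VIT_03s0038g04680 was called lower at S4 (-1.11). Between S1 and S2 no member was called in RG, IT or TS, where 0.808%, 8.48% and 3.36% of the probes were.

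**Figure D3:**
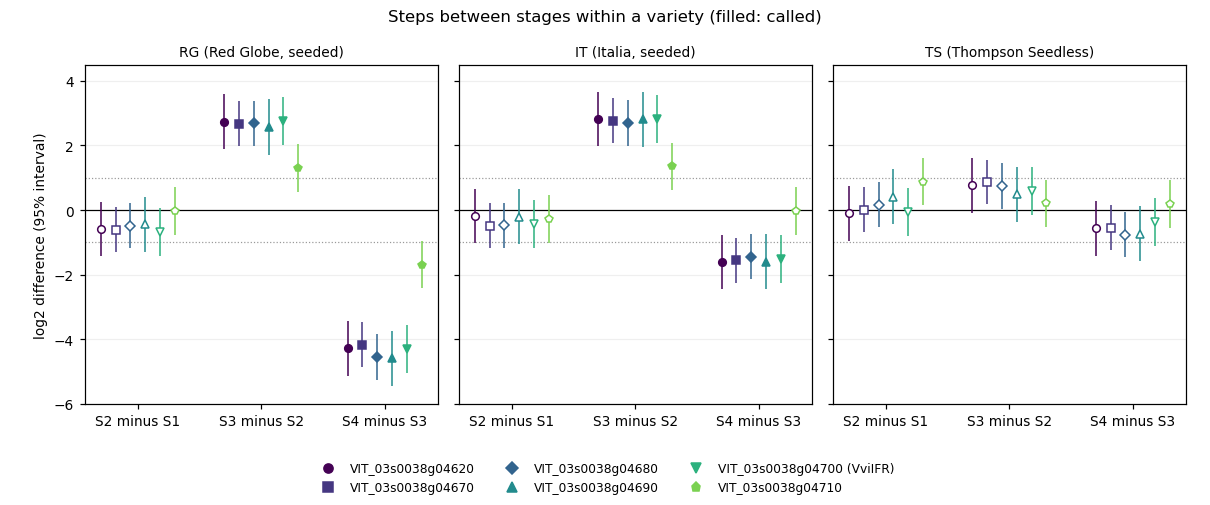
Log2 differences of the 6 probes between successive stages (y axis), S2 minus S1, S3 minus S2 and S4 minus S3 (x axis), in RG, IT and TS. Bars are 95% intervals from the limma fit, filled symbols were called and dotted lines mark a log2 difference of 1 in either direction. The step to S3 has close values in RG and IT (2.76 and 2.83 for VviIFR), and the step to S4 is deeper in RG (-4.30) than in IT (-1.51).

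The differences between these steps were tested directly. The rise between S2 and S3 was larger in RG than in TS for the 5 genes other than VIT_03s0038g04710, by 1.81 to 2.17 on the log2 scale (adjusted p 0.00761 to 0.0354), against 1.89% of all probes. It was likewise larger in IT than in TS for these 5, by 1.90 to 2.32 (adjusted p 0.00595 to 0.0225), against 3.35% of all probes. VIT_03s0038g04710 had differences of 1.09 for RG (adjusted p = 0.224) and 1.14 for IT (adjusted p = 0.158). Both comparisons use the same TS arrays, and both contain arrays by which the genes were chosen, so nothing is read from these shares. For RG against TS the call of VIT_03s0038g04620 was lost when any 1 of 10 of the 12 arrays was left out (all but RG S2 replicate 3 and TS S3 replicate 1, adjusted p 0.0549 to 0.0960), and that of VIT_03s0038g04690 for any 1 of 7 (RG S2 replicates 1 and 2, RG S3 replicates 2 and 3, TS S2 replicates 1 and 2 and TS S3 replicate 3). Without TS S3 replicate 2 VIT_03s0038g04670 was lost as well (adjusted p = 0.0502), and without TS S3 replicate 3 only VIT_03s0038g04680 and VviIFR were called. For IT against TS the call of VIT_03s0038g04620 was lost without IT S2 replicate 1, IT S3 replicate 2, TS S3 replicate 2 or TS S3 replicate 3 (adjusted p 0.0503 to 0.0641). With no scaling between arrays neither comparison called any member, with log2 differences of 2.73 to 3.09 for RG (adjusted p 0.112 to 0.256) and 2.99 to 3.41 for IT (adjusted p 0.0744 to 0.149) over the 5 genes. Between RG and IT no member was called for a difference in the rise (-0.24 to -0.01), where 1.13% of the probes were called. For VviIFR the interval of that difference was -1.12 to 0.98.

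The step between S3 and S4 set RG apart. It was lower in RG than in TS for all 6 genes, by -3.93 to -1.87, against 10.4% of all probes, and lower than in IT for all 6, by -3.10 to -1.66, against 8.90% of all probes. The comparison of RG with IT was added after the data had been seen, and with no scaling between arrays it called none of them (-2.95 to -2.46 for the 5 genes, adjusted p 0.0728 to 0.224). VIT_03s0038g04710 lost its call against TS with no scaling (adjusted p = 0.280), with only the arrays compared (adjusted p = 0.0581) and with first spots alone (-1.30, adjusted p = 0.209), and its call against IT with quantile normalization (adjusted p = 0.0764), with first spots alone (adjusted p = 0.178), without IT S3 replicate 3 (-1.51, adjusted p = 0.0615) and without IT S4 replicate 3 (-1.44, adjusted p = 0.0584). VviIFR differed by -3.93 from TS (adjusted p = 2.33e-06) and by -2.79 from IT (adjusted p = 0.000256). Between IT and TS the step of the 5 genes differed by -1.14 to -0.68, none of them called, where 16.6% of the probes were called in either direction. Without TS S4 replicate 3 the 4 genes VIT_03s0038g04670, VIT_03s0038g04680, VIT_03s0038g04690 and VviIFR were called lower in IT in this comparison (-1.64 to -1.25), and without IT S4 replicate 3 VIT_03s0038g04670 (-1.38) and VviIFR (-1.51) were.

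Marker genes moved over the same comparisons. The summed signal of the 4 ovule and seed coat markers, on the linear scale in units of the array's 75th percentile, was 101.4 to 125.7 in RG S3, against 42.9 to 44.7 in RG S2 and 37.0 to 44.4 in TS S3. It was 62.4 to 76.1 in RG S4, against 6.17 to 8.94 in TS S4, where 5 members had the opposite order. Such a sum weighs the brightest gene most, and VviAGL11 alone was at 5.79 to 6.19 on the log2 scale in RG S4. Gene by gene, 1 was called higher and 1 lower for RG against TS at S4 (median -0.32), where 6.91% and 9.92% of all probes were. Between S3 and S4 in RG 3 were called lower (median -4.27), where 16.0% of all probes were. For RG against IT at S4 3 were also called lower (median -2.81), where 17.4% were. In IT the sum was 24.1 to 33.2 at S2, 90.4 to 177.7 at S3 and 75.5 to 153.2 at S4. The 2 embryo markers tested, of 3 listed, summed to 19.2 to 20.6 in RG S3, against 7.80 to 8.14 in TS S3, and to 24.1 to 26.8 in RG S4, against 17.8 to 23.3 in TS S4. The petal and stamen markers VviAP3a and VviAP3b summed to 1.60 to 1.69 in RG S3, against 0.323 to 0.603 in TS S3. They summed to 0.684 to 0.918 in RG S4, against 1.05 to 9.23 in TS S4, the order that 5 members had at that stage. The part of these markers' cell types in the members' differences was not tested.

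The changes of the 5 probes other than VIT_03s0038g04710 differed by 0.13 (IT, S3 against S2) to 0.65 (RG against IT at S4) between the smallest and the largest log2 difference, in the comparisons with calls. The spread depended on the spots of VIT_03s0038g04690: for RG against IT at S4 it was 0.49 with first spots alone and 2.34 with second spots alone, and for the fall in RG it was 0.41 with both spots, 0.28 with the first and 1.34 with the second. Over the 12 group means, which share arrays and scaling, the 10 pairs among them had Pearson's r of 0.985 to 0.997, and over the 36 arrays 0.948 to 0.994. With VIT_03s0038g04710 the 5 pairs had r of 0.806 to 0.825 over the group means and 0.702 to 0.753 over the arrays.

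VIT_03s0038g04710 stood out as the probe with the smaller changes. It was also the dimmest by median processed signal, at 149.7 against 5264 to 16495 for the others. Whether the low signal itself made the changes smaller was not tested. The log2 change of VIT_03s0038g04710 was 61.8% of the median of the other 5 for RG against TS at S3, 48.4% for the rise in RG and 48.0% for the rise in IT. It was 51.3% for RG against IT at S4 and 39.3% for the fall in RG. The scaling between arrays cancels when its signal is taken relative to the mean of the other 5 on the same array. On that scale it stood at -7.32 ± 0.06 in RG S3 and at -6.46 ± 0.33 in TS S3 (SD, n = 3 each), a difference of -0.86. In RG it moved by -1.39 between S2 and S3 and by 2.69 between S3 and S4. In IT it moved by -1.44 and by 1.51 over the same steps. The arrays of the groups did not overlap in any of these 5 cases (p = 0.1 by a two-sided exact permutation test, which cannot go lower with 3 arrays on each side). The other 5 probes, each set against the remaining ones, moved by -0.79 to 0.43 over the 10 comparisons examined in this way. The remaining ones include VIT_03s0038g04710, so these values also carry the shift of that probe. For the fall in RG the log2 changes of the 5 themselves differed by at most 0.41.

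VIT_03s0038g04690 had the largest disagreement between its 2 spots. Its first spot lies in row 82 and its second in row 529 of 532. The spots differed by more than 1 on the log2 scale on 12 of 36 arrays, and on TS S1 replicate 2 by 5.49, which is 45.0-fold. By slide the first spot exceeded the second by 2.34 to 5.49 on slide 1, by 1.13 to 2.08 on slide 2 and by 0.73 to 1.42 on slide 5, while on the 4 IT slides 7 to 10 and on slide 12 the spots differed by at most 0.22. The spots of VviIFR, in rows 273 and 370, differed by at most 0.34 on any array and those of VIT_03s0038g04670 by at most 0.84. Differences over 1 were also seen for VIT_03s0038g04710 on 5 arrays (at most 1.88), VIT_03s0038g04680 on 3 (at most 1.31) and VIT_03s0038g04620 on 1 (1.77). The first spot of VIT_03s0038g04680 lies in row 11, and on slide 1 its log2 ratio to the second was -1.31 to -0.45.

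Other probes with 1 of 2 spots in the last 10 rows showed the same tilt. For bright probes of this kind the median log2 ratio of the inner over the outer spot was 0.94 to 1.69 on slide 1 and 0.38 to 0.60 on slide 2, against medians of 0.11 to 0.20 and 0.09 to 0.12 in size for pairs away from the edge. Elsewhere it was at most 0.39, apart from 1.28 on an array of slide 11. With its first spot alone VIT_03s0038g04690 was still called in every comparison in which the mean of both spots was called. With both spots it stood at 6.27, 6.71 and 6.84 in RG S3, against 4.54, 4.53 and 4.19 in TS S3. With its second spot alone the differences for RG against TS were 2.19 at S3 (adjusted p = 0.0876) and -2.56 at S4 (adjusted p = 0.0575), and neither was called, nor were the rise in RG (2.22, adjusted p = 0.116) and the fall in IT (-1.63, adjusted p = 0.217). For RG against IT at S4, on different slides, its difference was -2.03 with the first spot alone.

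**Figure D4:**
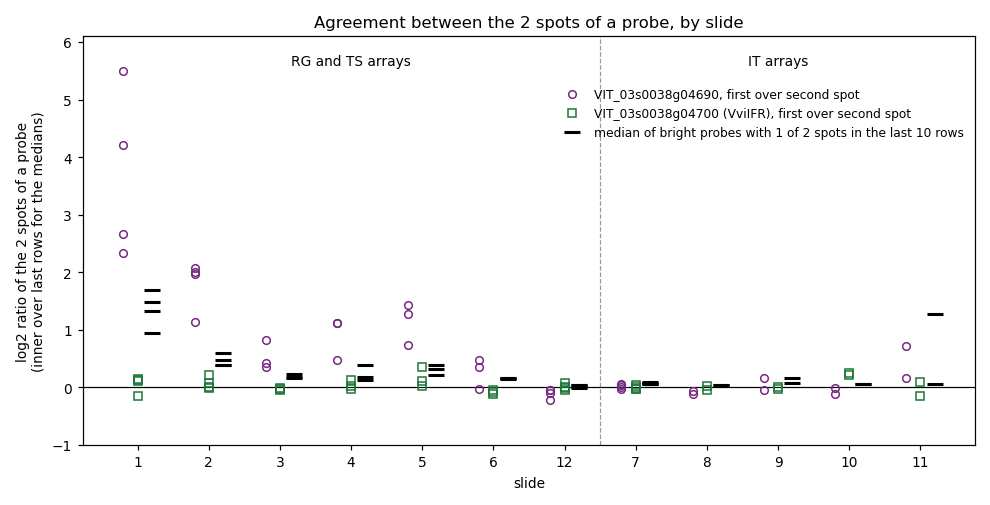
Log2 ratio of the first over the second spot (y axis) for VIT_03s0038g04690 (circles) and VviIFR (squares) on each array, by slide (x axis), with RG and TS slides left of the dashed line and IT slides right of it. Black bars are the median ratio, per array, of bright probes with 1 of 2 spots in the last 10 rows. VIT_03s0038g04690 reaches 5.49 on slide 1, where the medians run from 0.94 to 1.69, while VviIFR stays within 0.34 on every slide.

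The probe whose 12 group means were most like the members' mean profile was that of VIT_03s0038g04660, isoflavone reductase 5 (Pearson's r = 0.96 over 12 group means). For RG against TS its log2 difference was 2.73 at S3 (adjusted p = 0.000101) and -1.52 at S4 (adjusted p = 0.0259). It rose by 3.31 in RG and by 3.14 in IT between S2 and S3 and then changed by -4.53 in RG and -1.32 in IT, all called, and in TS the same steps were 0.69 and -0.27. The next in likeness were VIT_10s0042g00950, annotated as a succinyl-CoA ligase subunit of the citric acid cycle (r = 0.94), VIT_04s0023g01600, annotated as a membrane protein (r = 0.94), VIT_14s0030g02180, a GDP-mannose epimerase of the ascorbate and cell wall sugar pathways (r = 0.94), and VIT_09s0002g01710, a coatomer subunit (r = 0.92). Probes whose names lie beside the members in the numbering of the array's gene models did not all share the course: VIT_03s0038g04640 had a difference of -1.02 for RG against TS at S3 and differed by -0.72 between S2 and S3 in RG.

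VviAGL11, which encodes the MADS-box factor named above, had a different course. Its group means had r = 0.35 with the members' mean profile, which placed it at rank 3199 of 23146 probes, and r of 0.30 to 0.53 with the single members, the highest for VIT_03s0038g04710. The study's co-expression ranking was another measure, which also used a further seedless variety and other expression collections. For VviIFR the study also reported transcripts overlapping those of VviAGL11 in the seed coat, induction in leaves overexpressing VviAGL11 and promoter activation in a reporter assay. Those experiments were not examined here. In RG the means of VviAGL11 over the 4 stages were 3.68, 4.34, 5.88 and 5.99, so that its level at S4 was close to that at S3 (log2 difference 0.11, adjusted p = 0.854). In IT it was 4.80 at S3 and 5.59 at S4 (log2 difference 0.78, adjusted p = 0.191). The study, in contrast, described a fall of VviAGL11 at S4 in the seeded varieties. In TS it was 3.22, 2.67, 3.59 and 1.83 over the 4 stages. RG exceeded TS by 2.29 at S3 (adjusted p = 0.000209), as for the members, and by 4.16 at S4 (adjusted p = 5.79e-08), where 5 members were lower.

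Of the other genes, a list of 14 annotated with isoflavone metabolism was taken from the supplementary tables, which are in part lists of differentially expressed genes, and all 14 were tested. For RG against TS at S3, VIT_03s0038g04660 was the only 1 called higher and 3 were called lower, where 9.45% and 14.1% of all probes were. The list's median was -0.79 against 0.00 for all probes. At S4, 1 was called higher and 3 lower, where 6.91% and 9.92% of all probes were. Between S2 and S3 in RG, 3 rose and 1 fell, where 5.38% and 8.16% of all probes did. Between S3 and S4, 5 rose and 4 fell, where 15.3% and 16.0% of all probes did. The isoflavone hydroxylase VIT_00s0705g00010, a cytochrome P450, was called lower in RG at S3 (-2.87 against TS), the reverse of the members. VIT_15s0048g00990, annotated as a reductase of hydroxylated isoflavones and dihydroflavonols, was also called lower in RG at S3 (-1.62), and it rose between S3 and S4 in RG (4.09). VIT_03s0088g00060, another isoflavone reductase on this chromosome, stood well above background on every array of RG S1 and TS S1 and on no array of RG S3, RG S4, TS S2, TS S3 or TS S4.

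The 26 tested genes of the flavonoid pathway list, from phenylalanine ammonia-lyase to anthocyanidin reductase, moved in part in the direction of the members. Their names too came from the supplementary tables, which are in part lists of genes that differed in these samples. Nothing is read from the shares set beside their counts. For RG against TS at S3, 10 were called higher and 1 lower (median 1.20), where 9.45% and 14.1% of all probes were. Between S2 and S3 in RG 11 rose and 1 fell (median 1.61), where 5.38% and 8.16% of all probes did. Between S3 and S4 in RG, 18 fell and 2 rose (median -2.31), where 16.0% and 15.3% of all probes did. VIT_04s0023g03370, flavanone 3-hydroxylase, which forms dihydroflavonols, rose by 3.31 in RG between S2 and S3 and changed by -4.54 between S3 and S4. VIT_13s0019g04460, a phenylalanine ammonia-lyase at the entry of the pathway, was 1.53 higher in RG S3 than in TS S3 and changed by -4.03 in RG between S3 and S4. In IT between S2 and S3, 12 were called higher and 1 lower, where 3.89% and 5.0% of all probes were. Between S3 and S4 in IT, 3 were called higher and 3 lower, where 10.4% and 14.2% of all probes were. The median was 0.42, whereas the members' median there was -1.53. For RG against TS at S4, 4 were called higher and 2 lower (median -0.06), where 6.91% and 9.92% of all probes were. The members' median there was -1.57. For RG against IT at S4, 16 were called lower and 0 higher (median -2.23), where 17.4% of all probes were called lower. The members' median there was -2.30. The step between S3 and S4 was called lower in RG than in IT for 16 and higher for 1 (median -2.18). Of all probes 8.90% were called lower there, and the members' median was -2.73. VIT_18s0001g03430, a flavonol synthase, gave positive differences for RG against TS at S3 (1.96) and S4 (2.99), both called.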

How the data were processed

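Total RNA of ovules and seeds was hybridised to custom 1-colour Agilent arrays, and the authors deposited, per array, the output of Feature Extraction 10.7.1.1 as linear spot intensity; the processed signal is background-subtracted and not scaled between arrays. Spots of a probe (43803 spots, 26688 probes) were averaged without flagged ones, and log2 values were taken relative to each array's 75th percentile, over 26564 probes. Probes well above background on the 3 arrays of at least 1 group were tested (23152) with limma 3.58.1 in R 4.3.3, on 12 group means with 24 residual degrees of freedom and Benjamini-Hochberg adjustment over all probes; the fit was tested on simulated data. The authors also deposited a table of processed intensity for 22683 probes, used as an alternative; the supplementary tables' fold changes were not used. The number of arrays limits the precision. Python 3.11.15 with NumPy 2.4.6, pandas 2.3.3, SciPy 1.17.1 and matplotlib 3.10.9 did the rest.

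Named were all 6 members, the 5 most similar probes by Pearson's r, VviAGL11, and list genes whose values bear on a result; VIT_03s0038g04640, VIT_03s0088g00060 and inner no outer were named after their values were seen. The members and lists were chosen with earlier results of these data known. Names came from the supplementary tables (3828 probes paired). Same-numbered RG and TS samples deviated together (every pair's correlation over 0.1) at S1 (0.491 to 0.804), S2 (0.58 to 0.773) and S4 (0.476 to 0.681), where they mostly share slides, not at S3 (-0.159 to 0.30). The alternatives were other scalings, background corrections, filters, blocks, array weights, single spots, the methods' t-test and leaving out arrays. Probe sequences were not used here.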

Additional observations from a re-analysis of the deposited data

Results flagged for a closer look

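The steps between stages differed between varieties by a direct test for the members given here. All are log2 differences of 1 step between 2 varieties, with limma's adjusted p over all probes.

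For RG minus TS between S2 and S3, the difference was 1.97 for VIT_03s0038g04620 (adjusted p = 0.0354), 1.81 for VIT_03s0038g04670, 1.94 for VIT_03s0038g04680, 2.08 for VIT_03s0038g04690 and 2.17 for VviIFR (adjusted p = 0.00761). For IT minus TS over the same step it was 2.06 for VIT_03s0038g04620 (adjusted p = 0.0225), 1.90 for VIT_03s0038g04670, 1.95 for VIT_03s0038g04680, 2.32 for VIT_03s0038g04690 and 2.24 for VviIFR (adjusted p = 0.00595). The 2 comparisons share the TS arrays.

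For RG minus TS between S3 and S4, the difference was -3.72 for VIT_03s0038g04620, -3.62 for VIT_03s0038g04670, -3.78 for VIT_03s0038g04680 (adjusted p = 1.78e-06), -3.85 for VIT_03s0038g04690, -3.93 for VviIFR and -1.87 for VIT_03s0038g04710 (adjusted p = 0.00809). For RG minus IT it was -2.68 for VIT_03s0038g04620, -2.62 for VIT_03s0038g04670, -3.10 for VIT_03s0038g04680 (adjusted p = 3.73e-05), -2.99 for VIT_03s0038g04690, -2.79 for VviIFR and -1.66 for VIT_03s0038g04710 (adjusted p = 0.0205). RG S4 replicate 3 lay above the other RG S4 arrays for all 6 probes. Groups of 3 arrays are too small for a test of single outlying arrays, and none was made.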

How the results depend on the processing

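Direction and call of the 5 genes other than VIT_03s0038g04710 were kept for RG against TS at S3 in all alternatives with a test except the second spot of VIT_03s0038g04690. The count for RG against TS at S4 went to 0 members with no scaling between arrays (-1.54 to -1.39, adjusted p 0.287 to 0.396), with a fit of only the arrays compared (adjusted p 0.142 to 0.230) and with the methods' t-test, both unadjusted and after Benjamini-Hochberg. Within slide 1 the sign turned for VIT_03s0038g04670 (0.19), VIT_03s0038g04690 (0.34) and VviIFR (0.21). Without scaling the median of all probes moved to 0.36 for RG against TS at S3, 0.74 for IT against TS at S3, -0.61 for the last step in RG and -0.91 for that in IT, and 0 members were then called for the step differences RG minus TS and IT minus TS between S2 and S3 and RG minus IT between S3 and S4. With quantile normalization the share of probes called lower for RG against IT at S4 was 12.1%, and VIT_03s0038g04710 was lost there (-0.92).

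With the replicate number as a block, 1 member was called for RG against TS at S1 (VIT_03s0038g04710, adjusted p = 0.0477) and no other call changed. The same comparison gave 1 call with the percentile over probes well above background on all arrays, array weights, slide as a random block and first spots alone, and 2 without the arrays of slide 1. For IT against TS, 1 was called at S1 with that percentile and with array weights, and 1 at S4 with only probes well above background on all arrays. For RG against IT, 1 was called at S1 with array weights and without the arrays of slide 1, and 2 at S4 with the t-test after Benjamini-Hochberg. With slide as a fixed block 0 were called for IT between S2 and S3 (2.56 to 2.66, adjusted p 0.0652 to 0.0793), where only slide 7 holds both stages, and 1 for RG minus TS over that step, against 3 with second spots alone. For IT between S3 and S4, 1 was called with the t-test after Benjamini-Hochberg. In TS, 1 was called between S1 and S2 with array weights and 1 between S3 and S4 with quantile normalization. For IT minus TS, array weights gave 1 call between S1 and S2 and 5 between S3 and S4, and leaving out slide 1 gave 4. VIT_03s0038g04710 in IT between S3 and S4 was 0.0057 with quantile normalization and 0.16 with normexp. Within the array it changed by -1.55 in RG between S2 and S3 with the median signal less local background. With Spearman's rho 1 of the 5 most similar probes was shared.

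Leaving out 1 array at a time, the members called ranged from 0 to 1 for RG against TS at S1, from 5 to 6 at S3 and from 5 to 5 at S4, from 0 to 1 for IT against TS at S1, from 5 to 6 at S3 and from 0 to 3 at S4, and from 5 to 6 for RG against IT at S4. They ranged from 5 to 6 between S2 and S3 in RG and in IT, from 6 to 6 in RG and 5 to 5 in IT between S3 and S4, and from 0 to 1 in TS between S3 and S4. For the step differences the ranges were 2 to 5 for RG minus TS and 4 to 5 for IT minus TS between S2 and S3, and 6 to 6 for RG minus TS, 0 to 4 for IT minus TS and 5 to 6 for RG minus IT between S3 and S4. VIT_03s0038g04710 in IT between S3 and S4 ranged from -0.25 to 0.089. The 3 arrays per group, the slides of IT, shared with no other variety, and the dim probe of VIT_03s0038g04710 limit the precision.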
